A study of Mus musculus with 5 samples.

Results

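The genes described here handle iron inside cells. They are the transferrin-receptor partner Hfe, the transferrin receptors Tfrc and Tfr2, the importers Slc11a1 and Slc11a2, the exporter Slc40a1, the ferritin subunits Fth1 and Ftl1, the heme oxygenase Hmox1 and the translational regulator Ireb2. They were taken by gene symbol from a table of RNA levels. The 10 genes have 11 transcripts there, of 26531 transcripts and 22098 symbols in all. Of the symbols, 9 were in the table as given, and Tfr2 was found through its RefSeq accession under its older symbol Trfr2. The genes were chosen with results of these libraries in view, and Hfe was picked because its level differed between dF1 and wt. That difference is therefore given as a description, with no test.

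RNA came from cells of Hardy fraction A, the earliest stage of Hardy's scheme for B cell development, sorted from the marrow of C57BL/6 mice 6 to 7 weeks old without removal of other lineages. The groups were dF1 (Ikaros_ZnF1-/-, 2 libraries described as biological replicates), dF4 (Ikaros_ZnF4-/-, 1 library of low coverage) and wt (2 libraries). Ikaros, encoded by Ikzf1, is a DNA-binding zinc finger protein needed for lymphoid development, and the genotypes name a different finger in each mutant. Nothing in the labels ties the wt libraries to different animals, so the spread that the tests use may be technical. Levels are in RPKM, a read density scaled to transcript length and library size, and were written to 1 decimal.

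The libraries were not alike in the RNA of cell type markers. The labels call the cells proB cells, and early B lineage markers were present in every library, summed over 13 genes at 686 and 656 RPKM in dF1, 1407 in dF4 and 856 and 573 in wt. The 13 markers of plasmacytoid dendritic cells summed to more than these in dF1 and wt but to less in dF4, at 4686 and 5395 RPKM in dF1, 889 in dF4 and 5467 and 6322 in wt. From the steps between its lowest values, dF4 was estimated at 597000 reads, and the depth of the dF1 and wt libraries is unknown. Intervals given for dF4 are exact 95% Poisson intervals on its estimated reads and cover counting error only. Because these are bulk samples, fewer cells of a type and less RNA per cell cannot be told apart.

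Cells take up iron mainly as transferrin, which binds transferrin receptor 1 (Tfrc) at the surface and is carried into endosomes. HFE is a protein of the MHC class I fold that binds transferrin receptor 1 and competes with transferrin, and in liver cells it takes part in the control of the hormone hepcidin. Imported iron leaves endosomes through SLC11A2 (DMT1), is stored in ferritin and leaves the cell through ferroportin (SLC40A1). Iron regulatory proteins, of which Ireb2 encodes IRP2, bind a hairpin called the iron responsive element. In the 5′ untranslated region (UTR) the bound hairpin blocks translation, and in the 3′ UTR of Tfrc it protects the RNA from decay.

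The hairpins found in 4 of the 10 genes are shown because they lie on different sides of the coding sequence. A script searched annotated UTRs on the sense strand of GENCODE M21 transcripts (GRCm38) for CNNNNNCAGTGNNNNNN, where the 5 bases before the loop CAGTGN pair with the 5 after it (G with T allowed) and the last loop base is not G. Of 22070 genes with an annotated UTR, 133 (0.603%) held a match. Capitals mark the 6-base loop, and all sites are written 5′ to 3′ in DNA letters.
Fth1, 5′ UTR: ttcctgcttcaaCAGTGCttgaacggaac
Ftl1, 5′ UTR: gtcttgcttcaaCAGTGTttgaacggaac
Slc40a1, 5′ UTR: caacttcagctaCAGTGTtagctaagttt
Tfrc, 3′ UTR, site 1: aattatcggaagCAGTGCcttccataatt
Tfrc, 3′ UTR, site 2: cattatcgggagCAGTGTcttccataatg
Tfrc, 3′ UTR, site 3: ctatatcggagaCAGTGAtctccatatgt
Tfrc, 3′ UTR, site 4: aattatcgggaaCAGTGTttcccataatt

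Each match lay in the GENCODE transcript that corresponds to the table's own transcript. The ferritin and ferroportin hairpins sit ahead of the coding sequence, and those of Tfrc after it. No match says only that these letters are not in the annotated UTRs of the other 6 genes, Slc11a2 among them. Hairpins of another shape were not searched for, so these genes are not shown to lack one. RNA levels do not measure translation.

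Between dF1 and wt, Hfe RNA was higher in both dF1 libraries, at 9.3 ± 1.56 RPKM (SD, n = 2) in dF1 and 0.55 ± 0.071 RPKM (SD, n = 2) in wt. Tfrc averaged 66.1 ± 1.13 RPKM in dF1 and 132 ± 29.1 RPKM in wt (SD, n = 2 each), and both dF1 libraries lay below both wt libraries. Slc11a2 and Hmox1 lay above wt in both dF1 libraries, by smaller amounts, while Slc40a1 and Slc11a1 overlapped between the groups. Of the 11 transcripts, 4 lay above both wt libraries, 4 below both, and 3 overlapped. Of the 12215 transcripts averaging 1 RPKM or more over the libraries, 16.8% lay above both wt libraries and 17.9% below both. The members were chosen from this contrast, so nothing is read from these counts. By limma on log2(RPKM + 1), with Benjamini-Hochberg adjustment over the 12215 transcripts, 0% passed at an adjusted p of 0.05. At an unadjusted p under 0.05 there were 874.

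**Figure D1:**
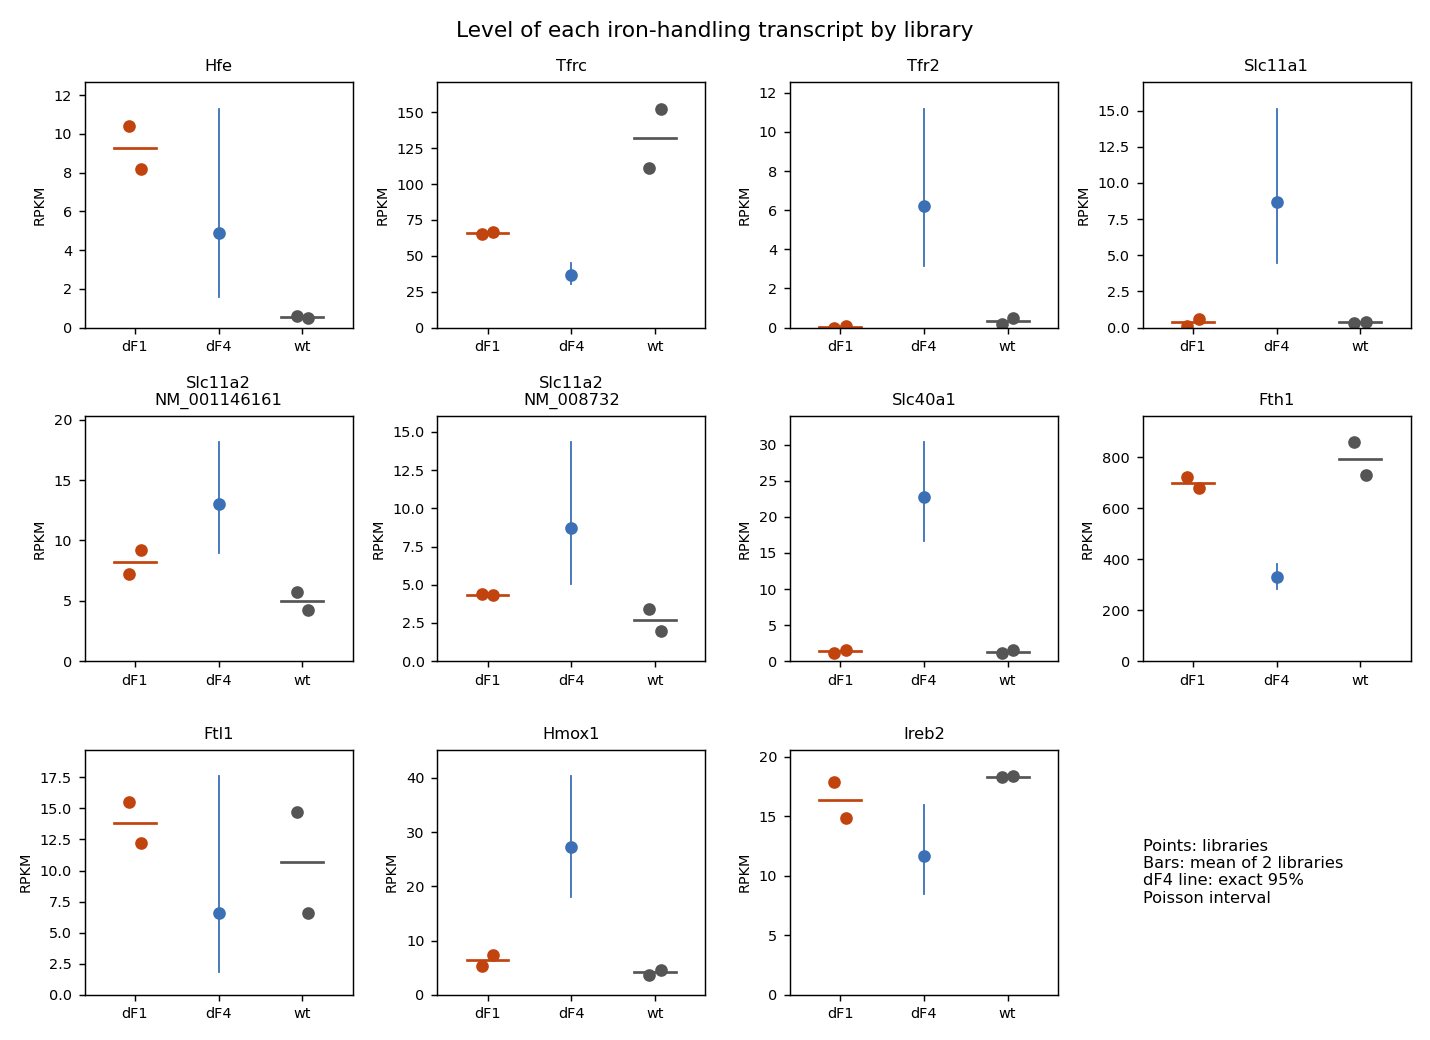
RPKM of the 11 transcripts in the dF1 (left), dF4 (middle) and wt (right) libraries, with a linear axis from 0 for each. Points are libraries, bars the mean of 2 libraries, and the dF4 line its exact 95% Poisson interval. Hfe stood at 8.2 and 10.4 RPKM in dF1 and at or below 0.6 RPKM in wt, and Tfrc at 65.3 and 66.9 RPKM in dF1 and above 111 RPKM in wt.

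Hfe (NM_010424) was at 10.4 and 8.2 RPKM in the dF1 libraries, 4.9 RPKM in the dF4 library and 0.6 and 0.5 RPKM in the wt libraries. Both mutants lay above both wt libraries, and the dF4 library lay between dF1 and wt. The dF1 mean was 16.9-fold the wt mean, a ratio that rests on wt values only a few rounding steps above 0. The dF1 minus wt difference was 2.72 (SE 0.18, limma) in log2(RPKM + 1), where the added 1 shrinks changes of low transcripts. In dF4 about 5 reads stood behind the value, with an interval of 1.57 to 11.3 RPKM, so its lower bound lay above both wt libraries and its upper bound above both dF1 libraries. Among all transcripts of its library, Hfe ranked at percentile 77.1 and 73.4 in dF1, 66.6 in dF4 and 52.5 and 51.3 in wt.

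The start of the Hfe gene is shown because Hfe was the member with the greatest dF1 difference in a mutant of a DNA-binding protein. The window runs from 250 bases before the annotated start to 20 bases after it, from RefSeq on build GRCm38.p6, minus strand, chr13:23710835-23711104. Capitals mark a match to TGGGAA, the core known to be bound by Ikaros, here on the opposite strand as TTCCCA.
Hfe: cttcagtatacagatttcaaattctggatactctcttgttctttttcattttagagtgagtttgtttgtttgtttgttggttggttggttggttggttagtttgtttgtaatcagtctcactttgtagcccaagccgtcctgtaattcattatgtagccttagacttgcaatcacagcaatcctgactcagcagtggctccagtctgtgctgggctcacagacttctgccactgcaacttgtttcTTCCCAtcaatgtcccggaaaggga

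The match overlaps the annotated start. Of 32851 promoter windows of 300 bases in RefSeq, 25.6% hold TGGGAA on either strand, and of the 11 windows found for 7 members, 4 do. The match is a description of the letters and does not show binding.

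Hfe lies in a histone gene cluster, and none of its 6 neighbours with a value had both dF1 libraries above both wt libraries. On the side of the lower coordinates, Hist1h4c was listed at 0 in every library, and Hist1h1t was at 0.1 RPKM or below. On the other side, the nearest gene with a value was the linker histone gene Hist1h1c, at 4.7 and 4.8 RPKM in dF1, 20.4 RPKM in dF4 and 7.4 and 4.9 RPKM in wt. Histone genes have close copies and largely non-polyadenylated RNA, so their values are uncertain in these libraries.

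By the distance between log2(RPKM + 1) profiles over the 5 libraries, each centred on its own mean, the 5 transcripts nearest to Hfe among 12214 were Podnl1, Basp1, Ang, Cd36 and Apod. The likeness was measured over these 5 libraries only and includes the contrast that picked Hfe. Podnl1, an extracellular matrix proteoglycan gene, was nearest (distance 0.75), at 10.5 and 7.4 RPKM in dF1, 2.4 RPKM in dF4 and 0.7 and 0.6 RPKM in wt. The distance of Basp1 was 1.14, and that of the fatty acid receptor gene Cd36 (NM_001159555) was 1.24. Unlike Hfe, Cd36 was higher in dF4 (19.8 RPKM) than in dF1 (14.1 and 10 RPKM), with 1.4 and 1.5 RPKM in wt. For Ang, an angiogenin, and Apod, an apolipoprotein, the distances were 1.15 and 1.38.

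Tfrc lay on the other side of wt from Hfe. Tfrc (NM_011638), the receptor that brings transferrin-bound iron into most cells, was at 65.3 and 66.9 RPKM in dF1, 36.9 RPKM in dF4 (30.4 to 44.6) and 111.5 and 152.6 RPKM in wt. Both mutant groups lay below both wt libraries. The dF1 minus wt difference was -0.97 on the log2(RPKM + 1) scale (SE 0.18), which did not pass over all transcripts (limma adjusted p = 0.316). Without wt replicate 2, the higher wt library, it was -0.75. In dF4 the level was 0.279 of the wt mean. The ratio of Tfrc to Hfe RNA, both per length, was 6.28 and 8.16 in dF1, 7.53 in dF4 and 186 and 305 in wt. The wt ratios rest on Hfe at 0.6 and 0.5 RPKM, and the dF4 ratio on about 5 Hfe reads. Hfe was picked for its dF1 difference, so the gap between the dF1 and wt ratios is a description.

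Tfr2 (NM_015799), a second receptor known mainly from liver and red cell precursors, was listed at 0 and at 0.1 RPKM in dF1. It was at 6.2 RPKM in dF4, from about 11 reads (3.12 to 11.2), and at 0.2 and 0.5 RPKM in wt. The dF4 library therefore stood above the 4 others, which were all near 0. The transcript entered the test only through dF4, since its mean over the 5 libraries was 1.4 RPKM, and the dF1 minus wt difference was -0.36 (SE 0.17, limma adjusted p = 0.752).

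Of the importers, Slc11a2, which encodes the endosomal iron importer DMT1, has a pair of transcripts in the table that share sequence, so their reads are not independent. The longer one (NM_001146161) was at 7.2 and 9.2 RPKM in dF1, 13 RPKM in dF4 (8.99 to 18.1) and 5.7 and 4.2 RPKM in wt. The shorter one (NM_008732) was at 4.4 and 4.3 RPKM in dF1, 8.7 RPKM in dF4 (5.04 to 14.3) and 3.4 and 2 RPKM in wt. Both transcripts were ordered dF4, dF1, wt, without overlap between the groups. The dF1 minus wt difference was 0.63 (SE 0.20) for the longer and 0.56 (SE 0.23) for the shorter, and neither passed (limma adjusted p = 0.64 and 0.698). The ratio of longer to shorter was between 1.49 and 2.14 in the 5 libraries.

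Slc11a1 (NM_013612) encodes NRAMP1, a metal transporter of the phagosomes of macrophages and neutrophils. It was at 0.1 and 0.6 RPKM in dF1, 8.7 RPKM in dF4 (4.48 to 15.1, about 12 reads) and 0.3 and 0.4 RPKM in wt. The dF1 and wt libraries overlapped near 0 (difference -0.02, SE 0.22, limma adjusted p = 0.989), and dF4 stood above all of them. Like Tfr2, it entered the test only through dF4.

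Slc40a1 (NM_016917), the only known cellular iron exporter in mammals, was at 1.2 and 1.5 RPKM in dF1, 22.8 RPKM in dF4 (16.7 to 30.3) and 1.1 and 1.5 RPKM in wt. The dF1 and wt libraries overlapped (difference 0.03, SE 0.17, limma adjusted p = 0.975). The dF4 level was 17.5 times the wt mean, from about 46 reads. On the log2(RPKM + 1) scale the dF4 minus wt difference was 3.38, the highest of the 11 transcripts. That rank depends on the added 1. As a plain ratio of dF4 to the wt mean, Slc11a1 (24.9) and Tfr2 (17.7) were higher, both from wt values near 0.

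The heavy ferritin RNA was lower in dF4. Fth1 (NM_010239), the heavy subunit that oxidises iron for storage, was the most abundant of the members in every library, at 722.4 and 677.7 RPKM in dF1, 328.8 RPKM in dF4 (282 to 382) and 858.7 and 731.1 RPKM in wt. All dF1 values lay below wt, by less than the distance between the wt libraries (difference -0.18, SE 0.18, limma adjusted p = 0.871). The dF4 level was 0.414 of the wt mean. Ftl1 (NM_010240), the light subunit, was at 15.5 and 12.2 RPKM in dF1, 6.6 RPKM in dF4 (1.87 to 17.6, about 4 reads) and 14.7 and 6.6 RPKM in wt. The wt libraries alone spanned most of that range, and dF1 and wt were not distinguished (difference 0.43, SE 0.37, limma adjusted p = 0.846).

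Fth1 stood at 46.6 to 111 times Ftl1 over the 5 libraries. Both ferritin genes have processed copies, of which RefSeq names 2 of the heavy and 3 of the light chain, and the sources used here do not say to which copy such reads went. The levels of Ftl1 and Fth1 are therefore uncertain, as is the ratio between them.

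Hmox1 (NM_010442), the inducible enzyme that opens heme and frees its iron, was at 5.4 and 7.4 RPKM in dF1, 27.3 RPKM in dF4 (18 to 40.4) and 3.7 and 4.6 RPKM in wt. The order was dF4, dF1, wt without overlap. The dF1 minus wt difference of 0.52 (SE 0.20) did not pass (limma adjusted p = 0.694), and dF4 was 6.58 times the wt mean. Ireb2 (NM_022655), which encodes IRP2, was at 17.9 and 14.9 RPKM in dF1, 11.7 RPKM in dF4 (8.45 to 16) and 18.3 and 18.4 RPKM in wt. The mutants lay below wt, with a dF1 minus wt difference of -0.16 (SE 0.14, limma adjusted p = 0.851), and the upper bound of dF4 lay below both wt libraries.

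**Figure D2:**
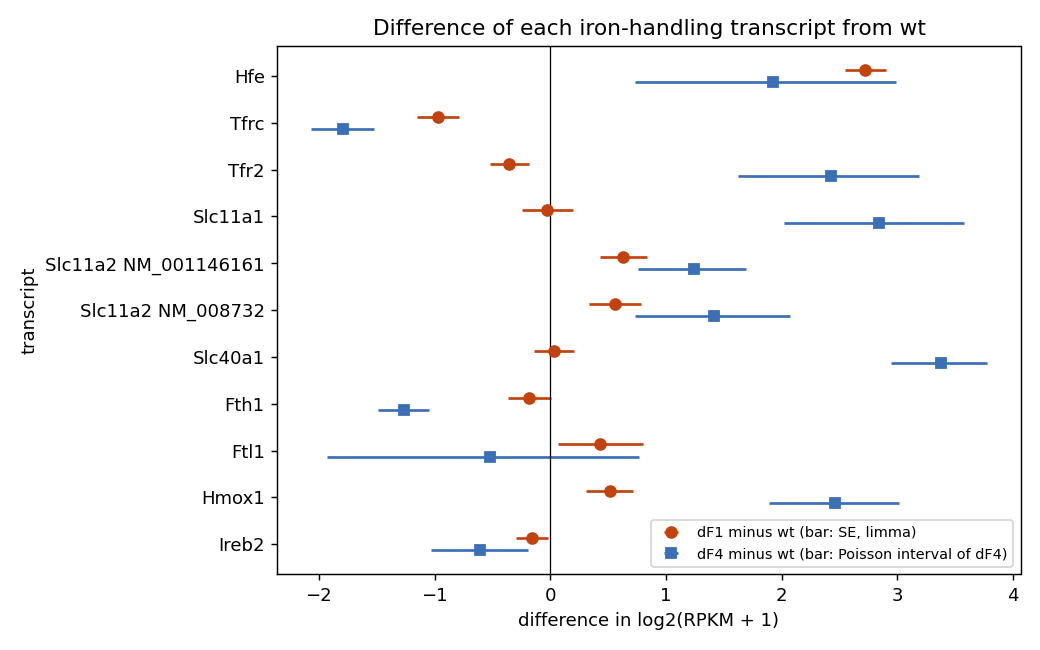
Difference from wt in log2(RPKM + 1) for each transcript, in dF1 (circles, bar: SE from limma) and dF4 (squares, bar: Poisson interval of the dF4 value, with the wt mean held fixed). Hfe has the highest dF1 difference (2.72) and Slc40a1 the highest dF4 difference (3.38), while Tfrc is below 0 in both (-0.97 in dF1 and -1.79 in dF4).

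In the single dF4 library the exporter, the heme oxygenase, Tfr2, Hfe and both importers were higher than in wt, and Tfrc, Fth1 and Ireb2 were lower. There is no replicate of dF4 and no test, and the dF4 and dF1 differences share the wt libraries. Of the 11 transcripts, 7 lay above both wt libraries and 3 below both, and Ftl1 was equal to wt replicate 2. Over all 12215 transcripts the shares were 44.7% above and 42.3% below. By a size rule (mean over the 5 libraries of at least 5 RPKM, wt libraries within 0.5 of each other on the log2 scale, dF4 outside both and at least 1 from their mean), 6 of the 11 could be counted. Slc40a1, Hmox1 and the longer Slc11a2 transcript counted as higher, against 7.75% of 7867 transcripts. Tfrc and Fth1 counted as lower, against 10.4%. The 3 that counted as higher had wt means under 5 RPKM, and Slc40a1 reached the minimum only through dF4 itself. With the minimum set on the wt mean, 0 members counted as higher and 2 as lower.

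Markers of other blood cells also differed between dF4 and wt, in both directions. Red pulp or erythroid island macrophage markers, summed over 8 genes, came to 7.1 and 11.1 RPKM in dF1, 114 RPKM in dF4 and 8.6 and 11 RPKM in wt. Of the 8, 6 lay above both wt libraries in dF4, led by C1qb at 49.6 RPKM. Over all 12215 transcripts averaging 1 RPKM or more, the share above both was 44.7%. Of the 6, Timd4 and Siglec1 averaged under 1 RPKM over the libraries. Spic, a transcription factor that defines iron-recycling macrophages of the spleen, was listed at 0 in dF4. In wt Spic was at 0.3 and 0.2 RPKM, too near 0 for a difference to be read. Cd163 was below wt in dF4. The 12 monocyte and macrophage markers summed to 484 and 451 RPKM in dF1, 1514 RPKM in dF4 and 432 and 360 RPKM in wt, and 9 of them lay above both wt libraries in dF4. That sum was high in dF4 through the lysozyme gene Lyz2, which neutrophils also express, at 9.9 and 37.7 RPKM in dF1, 1124.3 RPKM in dF4 and 33.7 and 40.2 RPKM in wt. Without Lyz2 the sum was 474.5 and 413.5 RPKM in dF1, 390 RPKM in dF4 and 398.5 and 320.1 RPKM in wt, so dF4 lay between the wt libraries. The members did not go one way. The lysosomal protein gene Cd68 was lower in dF4, at 181 and 169.2 RPKM in dF1, 51.4 RPKM in dF4 and 171.4 and 215.9 RPKM in wt. In dF4 the monocyte genes Ccr2 (63.8 RPKM) and Ly6c2 (39.2 RPKM) lay between the wt libraries. The growth factor receptor gene Csf1r was higher, at 2.4 and 7.3 RPKM in dF1, 41.7 RPKM in dF4 and 4.7 and 3.2 RPKM in wt.

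The 18 erythroid markers summed to 99.7 and 169 RPKM in dF1, 2429 RPKM in dF4 and 101 and 148 RPKM in wt, and 18 of 18 lay above both wt libraries in dF4. The 14 neutrophil markers summed to 222 and 872 RPKM in dF1, 34089 RPKM in dF4 and 412 and 1104 RPKM in wt, again with 14 of 14 above. The 7 T cell markers summed to 280 and 269 RPKM in dF1, 565 RPKM in dF4 and 267 and 158 RPKM in wt, with 7 of 7 above both wt libraries in dF4. Over all 12215 transcripts the share above both was 44.7%. Leaving out the gene of each list most abundant in dF4, a choice made after the values were seen, kept the dF4 sum above the other 4 libraries for the neutrophil, red pulp or erythroid island macrophage, erythroid, early B and T cell lists. The iron-handling members went both ways in dF4, with Tfrc, Fth1 and Ireb2 below both wt libraries. No member was assigned to a cell type by these values, whether above or below wt. The part of the cell types of the marker lists in the dF4 values was not tested. In dF1 the erythroid, neutrophil and red pulp or erythroid island macrophage sums overlapped with wt, and the monocyte and macrophage sum lay above it. Beside the Hfe and Tfrc values in dF1, the 8 NK cell markers summed to 1390 and 1191 RPKM in dF1, 346 RPKM in dF4 and 1142 and 556 RPKM in wt, and the plasmacytoid dendritic cell sum given above was lower in both dF1 libraries than in wt. The NK and T cell sums lay above wt in both dF1 libraries. Without Gzma, Thy1 and Ly6d, the most abundant gene of each list in dF4, the NK, T and plasmacytoid dendritic cell sums of dF1 and wt overlapped. Their part in the dF1 values was not tested.

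**Figure D3:**
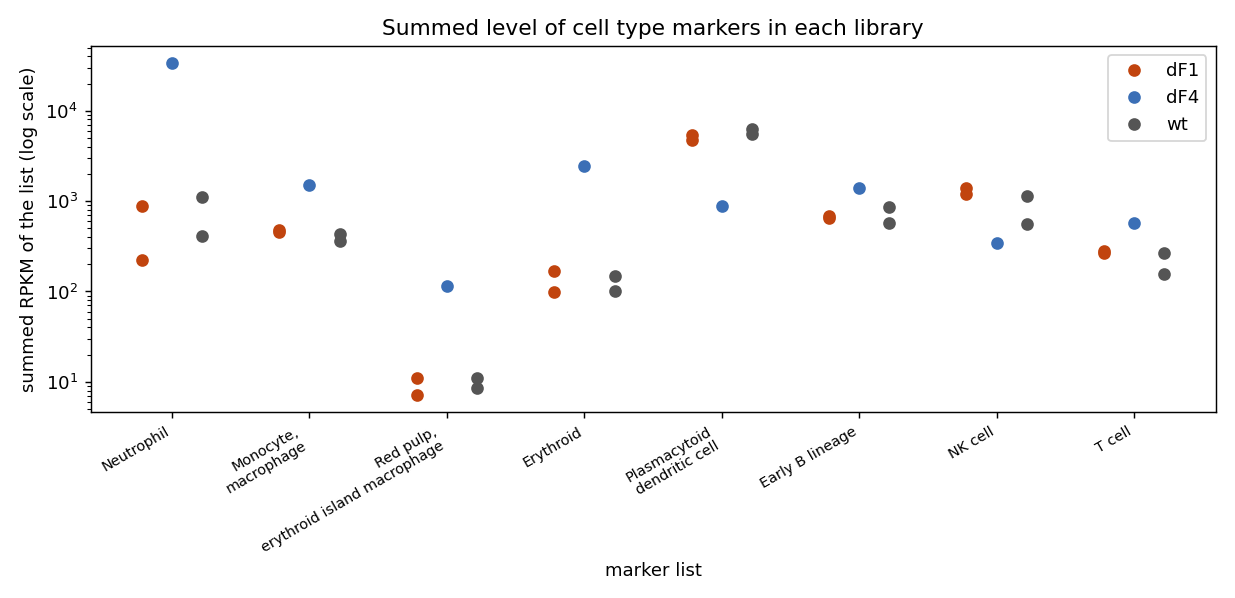
Summed RPKM of 8 marker lists (log axis) in each dF1 (left), dF4 (middle) and wt (right) library. The dF4 point stands above the other 4 libraries for 6 lists, of which the monocyte and macrophage one rests on Lyz2, and below them for plasmacytoid dendritic cells (889 RPKM) and NK cells (346 RPKM).

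Beyond the members, 87 other iron genes in 7 lists were all found in the table, and 64 had a mean of at least 1 RPKM. A gene with several transcripts is given by the one with the highest mean. Between dF1 and wt, 0 of the 64 passed (smallest limma adjusted p = 0.31), with a median difference of -0.04 on the log2 scale, against 0.01 over all transcripts. Of the 64, 17.2% lay above both wt libraries and 23.4% below both, against 16.8% and 17.9% of all transcripts. In dF4, 4 of 43 counted as higher and 4 as lower by the size rule (9.3% each), against 7.75% and 10.4% of all countable transcripts. No read counts or intervals are given for these genes, and low dF4 values among them may rest on few reads.

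In the uptake list, 2 of 10 tested genes lay above both wt libraries in dF1 and 1 below. Over all transcripts the shares were 16.8% and 17.9%. The 1 below, Slc39a8, was at 0.4 and 0.9 RPKM in dF1 and 1 and 1.3 RPKM in wt. It entered the test only through dF4 (4.9 RPKM). The endosomal sorting gene Snx3 was at 85.1 and 91.1 RPKM in dF1, 76.5 RPKM in dF4 and 69.8 and 59.5 RPKM in wt (dF1 minus wt 0.44, SE 0.13, limma adjusted p = 0.596). The metal importer Slc39a14 was at 25.8 and 31.3 RPKM in dF1, 4.8 RPKM in dF4 and 24.1 and 21.2 RPKM in wt, the single gene of the list counted as lower in dF4. The iron-binding neutrophil proteins Lcn2 and Ltf were at 2670 and 1744 RPKM in dF4. Lcn2 was at 8.1 and 55.3 RPKM in dF1 and 26.9 and 64.3 RPKM in wt, and Ltf at 6.9 and 39.6 RPKM in dF1 and 17.9 and 61.8 RPKM in wt. Both also belong to the neutrophil list above. Steap4, an endosomal ferric reductase, was at 3 and 2 RPKM in dF1, 7.5 RPKM in dF4 and 6.5 and 2 RPKM in wt.

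In the export and heme transport list, 4 of 6 tested genes lay below both wt libraries in dF1 and 0 above, against 17.9% and 16.8% of all transcripts, and 0 of the 6 passed limma's test. Lrp1, a receptor that also takes up the heme carrier hemopexin, was at 0.5 and 1 RPKM in dF1, 16.9 RPKM in dF4 and 2.6 and 3.5 RPKM in wt (dF1 minus wt -1.22, SE 0.22, limma adjusted p = 0.31). The hemoglobin scavenger receptor Cd163 was at 2 and 2.6 RPKM in dF1, 2.2 RPKM in dF4 and 4.7 and 6.6 RPKM in wt (limma adjusted p = 0.407). The heme exporter Flvcr1 was at 2 and 2.6 RPKM in dF1, 6.9 RPKM in dF4 and 3.3 and 3.1 RPKM in wt. Haptoglobin (Hp) was at 3.6 and 10.4 RPKM in dF1, 374 RPKM in dF4 and 6.5 and 11.8 RPKM in wt, and Abcg2, a porphyrin exporter, was at 12 RPKM in dF4. The heme transporter Slc48a1, also below both wt libraries in dF1, was at 19.3 and 21.1 RPKM in dF1, 29.3 RPKM in dF4 and 24.4 and 24 RPKM in wt.

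Of the other heme-breakdown genes, the constitutive oxygenase Hmox2 was at 60 and 60.5 RPKM in dF1, 36.7 RPKM in dF4 and 67.5 and 61 RPKM in wt. In dF4 it was therefore on the other side of wt from Hmox1. The biliverdin reductases did not go together in dF1. Blvrb was at 10.2 and 21.5 RPKM in dF1, 61.2 RPKM in dF4 and 21.1 and 31 RPKM in wt, and Blvra at 21.8 and 21.6 RPKM in dF1, 17.1 RPKM in dF4 and 19 and 15.2 RPKM in wt.

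Of the 8 translational and heme-responsive control genes tested, 1 lay above both wt libraries in dF1 and 3 below. Over all transcripts the shares were 16.8% and 17.9%. The dF1 minus wt differences of the 8 lay between -0.15 and 0.18. Fbxl5, which targets IRP2 for degradation when iron is plentiful, was at 23 and 23.6 RPKM in dF1, 31 RPKM in dF4 and 25.6 and 24.3 RPKM in wt. Nfe2l2, an activator of Hmox1 and ferritin genes, was at 34.4 and 30.1 RPKM in dF1, 40 RPKM in dF4 and 32.2 and 24.8 RPKM in wt. Bach1, a heme-sensitive repressor of Hmox1, was at 7.4 and 7.9 RPKM in dF1, 15.5 RPKM in dF4 and 8.3 and 8 RPKM in wt. In dF4 the gene for the iron-sulphur protein Cisd1 counted as lower, at 1.7 RPKM in dF4, against 8.1 and 6.9 RPKM in wt.

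Of the 18 genes of the hepcidin axis, 9 averaged 1 RPKM or more, and of these 2 lay above both wt libraries in dF1 and 2 below. Over all transcripts the shares were 16.8% and 17.9%. Hamp2, Hfe2, Bmp2 and Smad6 were listed at 0 in every library, and Hamp, which encodes hepcidin, was above 0 only in dF1 replicate 1 (0.2 RPKM). B2m, whose protein pairs with HFE and with MHC class I chains, was abundant, at 2802 and 2190 RPKM in dF1, 1914 RPKM in dF4 and 2549 and 2076 RPKM in wt. The receptor gene Acvr1 was at 0.8 and 0.8 RPKM in dF1, 1 RPKM in dF4 and 2 and 2.2 RPKM in wt (dF1 minus wt -0.78, SE 0.14, limma adjusted p = 0.313). Smad1, which relays bone morphogenetic protein signals, was at 10 and 9.8 RPKM in dF1, 2.3 RPKM in dF4 and 11 and 10.1 RPKM in wt.

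Mitochondrial iron genes had a median dF1 minus wt difference of 0.02 over 24 tested, with 3 genes above both wt libraries and 3 below. Over all transcripts the shares were 16.8% and 17.9%. In dF4, 4 of 20 counted as higher and 1 as lower, against 7.75% and 10.4% of all countable transcripts. Slc25a37, the mitochondrial iron importer of red cell precursors, was at 11.3 and 12.8 RPKM in dF1, 103 RPKM in dF4 and 12.6 and 14.8 RPKM in wt. Its partner Abcb10 was at 6.1 and 6.7 RPKM in dF1, 35.3 RPKM in dF4 and 6.5 and 6.9 RPKM in wt. Glrx5, a glutaredoxin of iron-sulphur assembly, was at 15.9 and 23.2 RPKM in dF1, 55.8 RPKM in dF4 and 19.5 and 19.1 RPKM in wt, and Fdx1l was the fourth counted as higher. Nfu1, a scaffold for iron-sulphur clusters, was lower, at 8.5 and 11 RPKM in dF1, 0.2 RPKM in dF4 and 8.7 and 8.7 RPKM in wt. The widely expressed importer Slc25a28 was between 18.1 and 25.1 RPKM in every library. The erythroid markers given above were also higher in dF4 than in wt, and their part in the values of this list was not tested.

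Of the 4 storage and chaperone genes tested, 2 lay above both wt libraries in dF1 and 1 below. Over all transcripts the shares were 16.8% and 17.9%. The ferritin chaperone genes Pcbp1 and Pcbp2 were abundant. Pcbp1 was at 81.1 and 104.8 RPKM in dF1, 121.6 RPKM in dF4 and 81.7 and 78.9 RPKM in wt, and Pcbp2 at 102.9 and 99.2 RPKM in dF1, 77.9 RPKM in dF4 and 98.9 and 90.1 RPKM in wt. Pcbp4 was at 5.8 and 7.1 RPKM in dF1, 0.8 RPKM in dF4 and 4.9 and 4.1 RPKM in wt. Ncoa4, the receptor for ferritin degradation, was at 0.9 RPKM or below in every library by its transcript NM_001033988, and its other transcript was listed at 0 throughout.

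**Figure D4:**
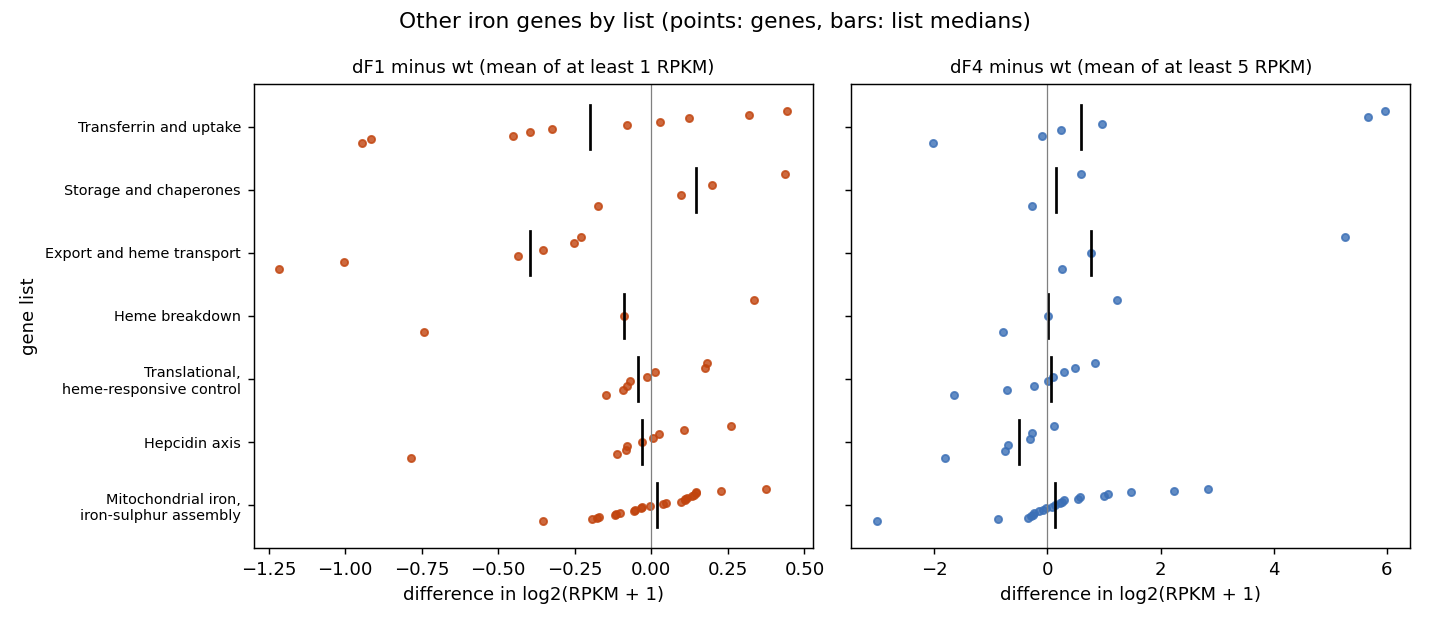
Difference from wt in log2(RPKM + 1) of the other iron genes by list, for dF1 (left) and dF4 (right, genes with a mean of at least 5 RPKM), with points for genes and black bars for list medians. In dF1 the points lie between -1.22 (Lrp1) and 0.44 (Snx3), and in dF4 Lcn2, Ltf and Hp lie furthest above 0.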

How the data were processed

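RNA was measured in 5 libraries. The deposited values are RPKM per RefSeq transcript, per the file headers, with the transcript length beside them. TopHat, bedtools and mm9 appear in the submitters' processing notes, with no versions. How strand and reads matching several copies were handled is not given in the sources used here. Dropped was 1 line with no gene. Reference sequences are of another build, so the table's transcripts were matched by symbol or accession only.

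The dF1 and wt libraries were compared in R 4.3.3 by limma 3.58.1 (two-sided, variances moderated with an intensity trend) on log2(RPKM + 1). The test covered transcripts averaging 1 RPKM or more across all 5 libraries. In dF4, 83.5% of 2484 low values, once multiplied by length, fell within 0.1 read of a multiple of 1.675 RPM. No such step was found in the other libraries, so no count test was run. The members and gene lists were chosen with earlier results of these data known. Named from each list were up to 4 genes with the largest difference in each comparison. The 5 profiles nearest to Hfe and its neighbours on the chromosome were named too. Further genes of the lists, among them Cd68, Ccr2, Ly6c2, Csf1r, Spic, Ncoa4, Hamp and Slc25a28, were named after their values were seen. The alternatives were other pseudocounts, filters and scalings, summing a gene's transcripts, robust variances, the replicate block and leaving out each library.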

Additional observations from a re-analysis of the deposited data

How the results depend on the processing

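The count of 0 transcripts called between dF1 and wt became 25 with a filter at a mean of 5 RPKM, a level Hfe did not reach, and 33 with robust variances. Of the member and iron-list transcripts 0 were called, except 1, Hfe, with robust variances, which is no independent check since Hfe was picked from this contrast. The Hfe difference of 2.72 was 3.85 with a pseudocount of 0.1, 1.36 with 5 and 2.90 after quantile normalization, and lay between 2.57 and 2.88 when a library was left out. The Tfrc difference lay between -1.20 and -0.75 when a library was left out, with adjusted p from 0.0955 to 0.931 over all alternatives. The sign for Ftl1, Slc11a1 or Slc40a1 between dF1 and wt changed in 6 of 138 recomputed member differences, and in 0 of 76 between dF4 and wt.

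In dF4 the counts over all transcripts, 610 higher and 818 lower, were 1289 and 1306 with a filter at 1 RPKM. The count lower was 533 with a pseudocount of 5, and the count higher was 992 without wt replicate 1 and 769 without wt replicate 2. Among members, 6 counted as higher at a 1 RPKM minimum and 0 when the minimum applied to wt alone, against 3. With a pseudocount of 5 the longer Slc11a2 transcript did not count. Of the 2 members lower, 1 (Fth1) counted after quantile normalization or median centring, where the wt libraries lay further than 0.5 apart for Tfrc (0.55 after centring). Without wt replicate 2, Ftl1 counted as well, giving 3.

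The labels do not say that replicate numbers pair libraries, though differences between replicates 1 and 2 correlated at 0.305 across transcripts between wt and dF1. With the replicate number as a block, 0 transcripts were called. Rounding to 1 decimal and the unknown depth of the dF1 and wt libraries limit what can be said of transcripts below 1 RPKM.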
